A study of Mus musculus with 9 samples.

Results

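The genes described here are 9 protein kinases of the CMGC group: the DYRK genes Dyrk1a, Dyrk1b and Dyrk2, the CLK genes Clk1, Clk2, Clk3 and Clk4, and the glycogen synthase kinase genes Gsk3a and Gsk3b. They were taken by symbol from the annotated expression table, where each name matched 1 of the 55471 counted genes. All 9 were among the 17396 genes with enough counts to be tested. RNA of the hippocampus was sequenced in 9 libraries, 3 per group, from female mice 9 months old. WT vehicle mice were C57BL/6J and were given blank solvent by mouth 4 times per week. The 3xTg vehicle mice were given the same solvent, and the 3xTg LP-10d mice were dosed orally with LP-10d (10 mg/kg, 4 times per week) for 1 month. The 3xTg genotype combines APPSwe, tauP301L and a PS1 change, whose residue is numbered differently in each of the 6 libraries, from M146V to M151V. The line is known for 1 presenilin change, M146V, so the other numbers may be an error of the labels and are not read as different mutations. It is also known to carry mutant human APP and tau driven by the neuronal Thy1 promoter, with the presenilin change knocked in. Its strain background may differ from C57BL/6J, so strain and transgenes cannot be told apart in any comparison with the wild type. The series title speaks of a compound acting on several kinases, and the labels do not name them. The labels also do not say that the replicates of a group are different animals. Counts differed between replicates of every group by more than sampling noise (chi-square per degree of freedom of 4.988 to 51.12), so no library is a repeat of another within that noise. The p-values reflect how far these libraries vary, and how much of that variation is technical is not known.

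DYRK kinases phosphorylate their own activation loop on tyrosine while they are being made and afterwards act on serine and threonine. CLK kinases phosphorylate the serine- and arginine-rich proteins that choose splice sites. GSK3 kinases are active in resting cells and are held back by AKT and by Wnt signalling. They often act on proteins that another kinase, such as a DYRK, has phosphorylated first. In the brain, DYRK1A and both GSK3 kinases are known to phosphorylate the microtubule protein tau. CLK and DYRK1A activity also affects tau splicing, and Clk genes are known for transcripts that keep introns in the nucleus.

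Total counts ran from 16582086 to 19170969 per library, and a kinase gene held between 606 and 3334 counts in a library. The tissue label was checked against hippocampal markers, and all 10 stood above 1 CPM (counts per 1000000 counts of a library) in every library, with summed levels of 2384 to 3619 CPM. All 8 striatal and all 7 thalamic markers also stood above 1 CPM throughout, so that cut-off cannot tell hippocampus from other brain tissue. Striatal markers summed to 1156 CPM in 3xTg vehicle replicate 2 and to 97.1 to 191 CPM in the other 8 libraries. Thalamic markers summed to 530 CPM in WT vehicle replicate 3 and to 137 to 383 CPM elsewhere. That same WT vehicle library had 5.04% of its counts in mitochondrial genes, against 2.28% to 2.86% in the others. Choroid plexus markers ranged from 61.2 to 4425 CPM in the WT vehicle libraries, 51.1 to 936 CPM in those of 3xTg vehicle and 42.6 to 2661 CPM with LP-10d. Oligodendrocyte markers summed to 7013 to 7511 CPM in WT vehicle and to 5025 to 6351 CPM in 3xTg vehicle, without overlap, and the LP-10d range of 5855 to 7824 CPM overlapped with both. Their part in the differences from the wild type was not tested. In bulk tissue, fewer cells of a type and less RNA per cell cannot be told apart.

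Each gene is protein-coding, and the position of each of these 9 genes in the deposited table (mm10) equals that in GENCODE M21. Of the DYRK genes, Dyrk1a (ENSMUSG00000022897) lies at chr16:94570010-94695517 on the plus strand, Dyrk1b (ENSMUSG00000002409) at chr7:28179469-28187294 on the plus strand and Dyrk2 (ENSMUSG00000028630) at chr10:118855603-118870209 on the minus strand. Of the CLK genes, Clk1 (ENSMUSG00000026034) lies at chr1:58410189-58424066 on the minus strand, Clk2 (ENSMUSG00000068917) at chr3:89164795-89176921 on the plus strand, Clk3 (ENSMUSG00000032316) at chr9:57750624-57765860 on the minus strand and Clk4 (ENSMUSG00000020385) at chr11:51261730-51281766 on the plus strand. Of the GSK3 genes, Gsk3a (ENSMUSG00000057177) lies at chr7:25228258-25237851 on the minus strand and Gsk3b (ENSMUSG00000022812) at chr16:38089001-38246084 on the plus strand.

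Because the counts were made per gene, it matters how far related kinases share sequence. Among the 9, Clk1 and Clk4 share the longest identical coding run, 34 bases, with 73.4% identity over 1456 aligned bases. The stretch around that run is shown for both, in lower case with the differing bases in capitals, 5′ to 3′ on the coding strand. It lies in exon 4 of each gene, at chr1:58420132-58420195 on the minus strand for Clk1 and at chr11:51273094-51273157 on the plus strand for Clk4 (mm10, GENCODE M21 transcripts). Exon 4 of Clk1 is known to be skipped in part of its transcripts, which then code for a protein without kinase activity.
Clk1: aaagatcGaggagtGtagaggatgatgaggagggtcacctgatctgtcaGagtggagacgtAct
Clk4: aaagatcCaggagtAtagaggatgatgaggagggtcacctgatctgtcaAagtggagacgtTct

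Over these 64 coding bases the genes differ at 4. The corresponding stretch of the GSK3 pair, which codes for the start of the activation loop, is shown in the same way. Gsk3a and Gsk3b are the 2 members with the highest mean CPM, a scale that does not account for gene length. Its longest identical run is 17 bases, and 6 of 47 bases differ. It spans exons 5 and 6 in both genes, at chr7:25231712-25231850 on the minus strand for Gsk3a and chr16:38187925-38191557 on the plus strand for Gsk3b, with the intron between the exons left out.
Gsk3a: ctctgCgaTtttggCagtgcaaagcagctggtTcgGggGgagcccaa
Gsk3b: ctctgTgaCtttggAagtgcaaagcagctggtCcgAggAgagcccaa

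Other genes share exons with some members. Of the annotated exon bases of Gsk3a, 28.3% lie over the antisense gene 9130221H12Rik, which stood at a mean of 1.42 CPM. Clk3 shares 15.2% of its exon bases with Edc3, a decapping factor on the opposite strand with a mean of 33.1 CPM. Dyrk2 shares 5.25% with the opposite-strand gene 4932442E05Rik, at 1.56 CPM. The sources used here do not give the strand setting of the counting, so reads from these overlaps cannot be told apart. A processed pseudogene of Gsk3a, Gm6275, holds an identical run of 78 coding bases and stood at 0.0309 CPM.

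All 9 kinases were expressed in every library. On the scale of the authors' FPKM (fragments scaled by gene length and library size), which allows comparison between genes, Gsk3a was the most abundant member, with a mean of 56.0 and a range of 39.5 to 60.6 over the 9 libraries. That mean exceeded the level of 95.9% of tested genes. Gsk3b followed at 15.4 (13.6 to 18.1) and Dyrk1b at 14.6 (13.0 to 17.4). The ranges of Gsk3a and Gsk3b did not overlap, and Gsk3a was 3.64 times as high. Gsk3b and Dyrk1b overlapped in range. Clk1 came next at 11.2 (9.69 to 12.7), below Dyrk1b in all 9 libraries and with no overlap. From there down the order is not resolved: Clk1, Clk2 (10.0), Clk4 (9.88), Dyrk1a (9.61), Clk3 (9.53) and Dyrk2 (8.50) each overlapped in range with the next.

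The order of levels depends on the gene length behind it. The lengths that the deposited FPKM imply equal the union of all annotated exons for each of the 9 genes, retained introns included. For Clk1 that length is 8132 bases, of which the single protein-coding transcript covers 1796, and 7 of its 13 annotated transcripts are retained introns. For Clk4 the lengths are 5797 and 2191 bases, with 7 retained-intron transcripts of 14. Dyrk1b has 3 transcripts, all protein-coding, and a length of 2695 bases on both counts. When the FPKM values were rescaled to the exons of protein-coding transcripts, a choice made after seeing the data, Clk1 stood at 50.8 ± 4.91 (SD, n = 9), Clk4 at 26.1 ± 1.66, Clk2 at 23.2 ± 2.08 and Clk3 at 22.9 ± 1.27. By their means, all 4 CLK genes then stood above Gsk3b (18.2 ± 1.41), Dyrk1b (14.6 ± 1.56), Dyrk1a (12.5 ± 0.591) and Dyrk2 (8.66 ± 0.777). By its mean, Gsk3a kept the top place at 71.8 ± 8.38, but its range (50.7 to 77.8) overlapped with that of Clk1 (43.9 to 57.3). How many reads fell in introns cannot be read from gene counts, so the rescaled value is an upper limit for a gene whose reads partly come from retained introns.

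**Figure D1:**
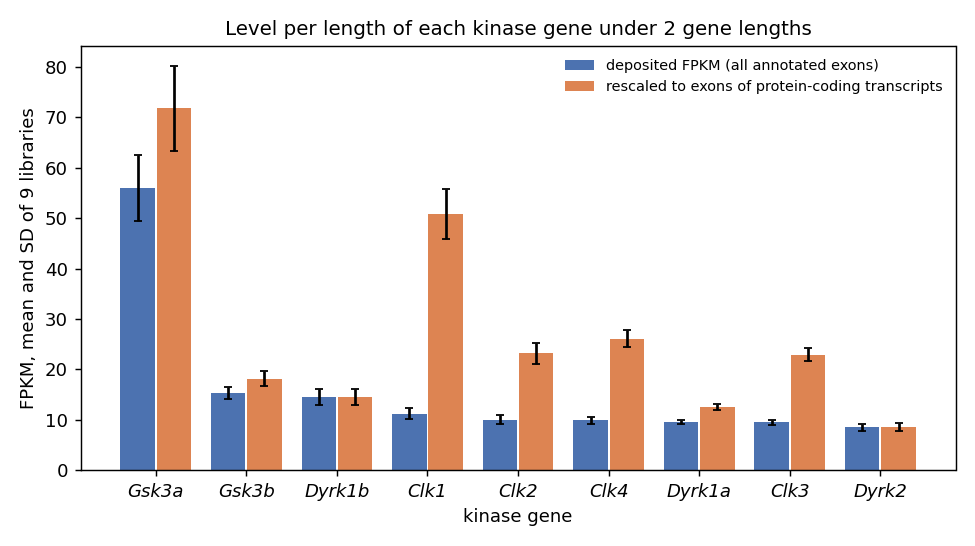
Level per length of each kinase gene: bars give the mean FPKM over 9 libraries and error bars the SD, as deposited (blue) and rescaled to the exons of protein-coding transcripts (orange). Clk1 moves from 11.2 to 50.8 while Dyrk1b stays at 14.6.

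In the comparisons below, levels are CPM with library sizes scaled by edgeR's TMM method, which suit comparisons of 1 gene between libraries. Differences are log2 fold changes, and each 95% interval is for 1 gene without adjustment for the number of genes. In 3xTg vehicle against WT vehicle, none of the 9 passed the adjusted threshold of 0.05, where 0.00575% of all tested genes did. In 3xTg LP-10d against 3xTg vehicle and in 3xTg LP-10d against WT vehicle, again none passed, where the background was 0%. The 27 intervals all lay within 1.5-fold in either direction, between 0.71 and 1.35 times the reference group. A change as large as 1.5-fold in transcript level was therefore outside the interval of every member in each comparison. The smallest adjusted p was 0.369 for Clk1 in the first comparison, 1 in the second and 0.535 for Clk1 in the third (quasi-likelihood F test of edgeR, adjusted by Benjamini and Hochberg over all tested genes). DESeq2 also called none of the 9, where it called 2.02%, 0.00575% and 0.264% of all genes in these comparisons.

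**Figure D2:**
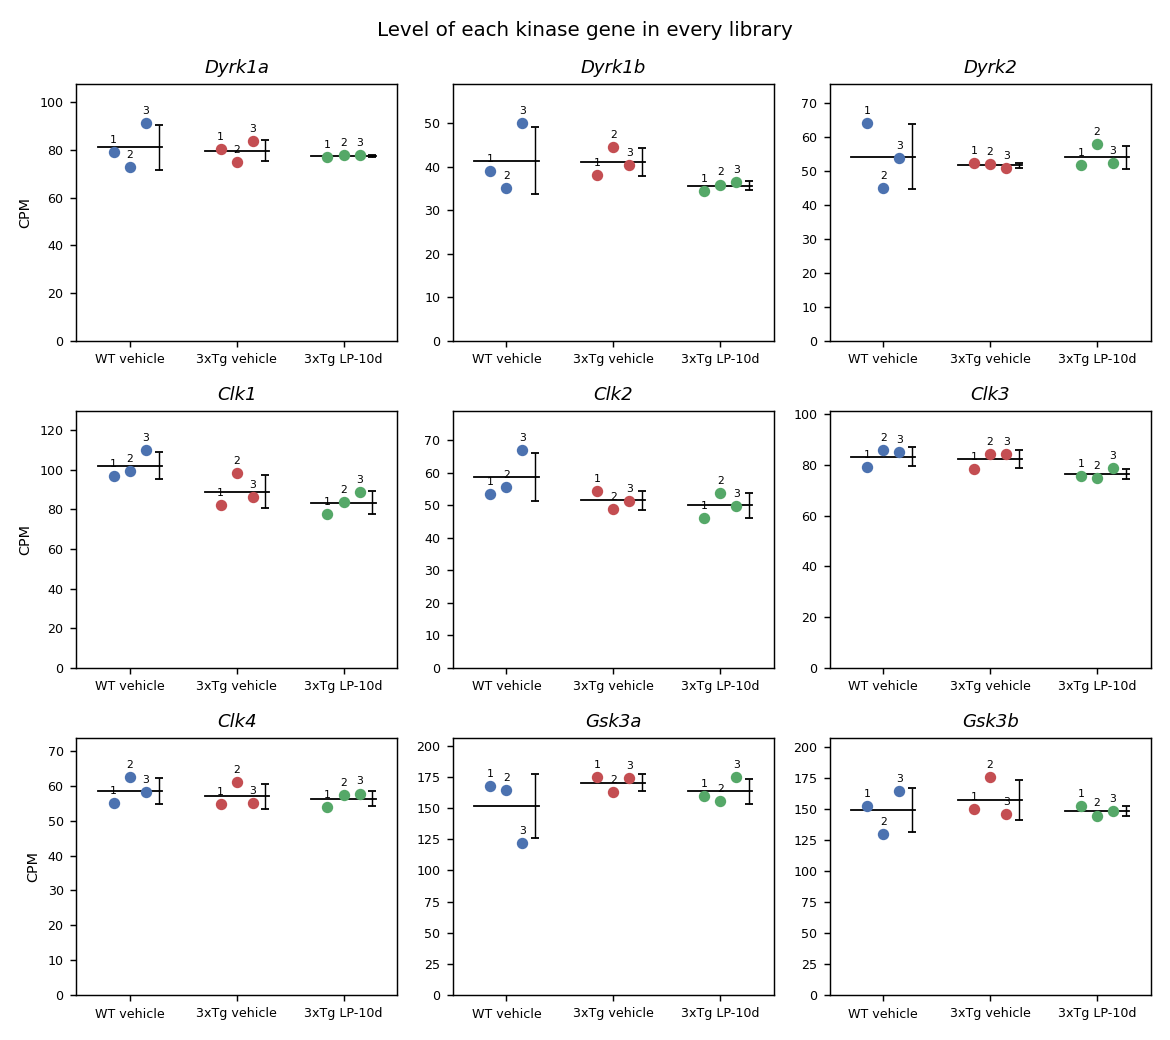
CPM (TMM-scaled) of each kinase gene in every library, numbered by replicate, with the mean of each group as a line and the SD of 3 libraries as a bar. The values of Gsk3a run from 122 to 175 CPM, and the lowest is WT vehicle replicate 3.

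Clk1 stood at 96.9, 99.5 and 110 CPM in WT vehicle replicates 1, 2 and 3. Its levels were 82.4, 98.2 and 86.3 CPM in 3xTg vehicle and 77.5, 83.8 and 88.9 CPM in 3xTg LP-10d. All 3 LP-10d libraries lay below all 3 WT vehicle libraries, while 3xTg vehicle replicate 2 lay within the wild-type range. The log2 fold change of LP-10d-treated 3xTg against WT vehicle was -0.29 ± 0.09 (SE), with an interval of -0.50 to -0.08. The edgeR p was 0.0107 before adjustment and 0.535 after it. Against 3xTg vehicle the LP-10d difference was -0.09 ± 0.09, and it was -0.02 without 3xTg vehicle replicate 2. Between 3xTg vehicle and WT vehicle it was -0.20 ± 0.09, with an edgeR adjusted p of 0.369.

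Clk2, which also acts in liver metabolism, was at 53.6, 55.5 and 67.0 CPM in the WT vehicle libraries, 54.5, 48.8 and 51.2 CPM in those of 3xTg vehicle and 46.2, 53.8 and 49.9 CPM with LP-10d. WT vehicle replicate 3 stood above all other libraries, and every pair of groups overlapped. The log2 fold change of 3xTg LP-10d against WT vehicle was -0.23 ± 0.10 (SE), with an edgeR p of 0.0489 before adjustment and 0.569 after it. Without WT vehicle replicate 3 it was -0.13, and that of 3xTg vehicle against WT vehicle moved from -0.19 to -0.09.

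Clk3, abundant in testis as well as brain, had the lowest coefficient of variation within groups among the members. It was at 79.0, 85.9 and 85.0 CPM in the WT vehicle libraries, 78.3, 84.3 and 84.2 CPM in those of 3xTg vehicle and 75.7, 74.9 and 78.6 CPM with LP-10d. All 3 LP-10d libraries were below the lowest WT vehicle library, and the highest of them overlapped with 3xTg vehicle. The gap to the wild type was narrow, 78.6 against 79.0 CPM. On the FPKM scale LP-10d (9.02 to 9.28) and WT vehicle (9.08 to 10.5) overlapped. The log2 fold changes were -0.12 ± 0.07 against WT vehicle and -0.11 ± 0.07 against 3xTg vehicle (SE).

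Clk4, the closest relative of Clk1, ran from 53.8 to 62.5 CPM over all libraries. Its group means were 58.6 ± 3.67, 57.0 ± 3.50 and 56.4 ± 2.19 CPM in WT vehicle, 3xTg vehicle and 3xTg LP-10d (SD, n = 3 each). The groups overlapped, and the 3 log2 fold changes lay between -0.06 and -0.02.

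Summed over the 4 CLK genes, levels were 303 ± 17.6, 280 ± 11.5 and 266 ± 11.5 CPM in the same order (SD, n = 3 each). The LP-10d sums of 253, 270 and 275 CPM lay below the WT vehicle sums of 285, 303 and 320 CPM, the last from replicate 3. Clk1 and Clk3 lay lower singly in CPM, Clk3 not on the FPKM scale, while Clk2 and Clk4 overlapped. Of all genes taken singly, 6.89% lay lower without overlap in that comparison. The sum of the 3 DYRK genes was 177 ± 21.8, 172 ± 2.35 and 167 ± 4.18 CPM, and that of both GSK3 genes 301 ± 17.9, 328 ± 9.84 and 313 ± 11.4 CPM. No test was made on these sums.

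Dyrk1a, whose dosage is raised in Down syndrome and which phosphorylates tau and NFAT factors, stood at 79.1, 72.8 and 91.4 CPM in WT vehicle. It was at 80.2, 75.1 and 83.8 CPM in 3xTg vehicle and at 77.0, 77.7 and 77.8 CPM in 3xTg LP-10d. The treated libraries were the most uniform, and all groups overlapped. The log2 fold change was -0.02 ± 0.09 for 3xTg vehicle against WT vehicle and -0.04 ± 0.09 for LP-10d against 3xTg vehicle (SE). The latter has an interval of -0.25 to 0.16, that is 0.84 to 1.12 times the vehicle level. Without WT vehicle replicate 3 the first of these was 0.06.

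Dyrk1b, a kinase linked to cell quiescence and muscle differentiation, was at 39.0, 35.1 and 50.1 CPM in WT vehicle. Its levels were 38.1, 44.6 and 40.5 CPM in 3xTg vehicle and 34.5, 35.9 and 36.5 CPM in 3xTg LP-10d. The LP-10d libraries lay below all 3xTg vehicle libraries and overlapped with WT vehicle, where replicate 3 stood highest. The log2 fold change against 3xTg vehicle was -0.20 ± 0.13 (SE), with an interval of -0.49 to 0.08 and an edgeR adjusted p of 1. It was -0.14 without 3xTg vehicle replicate 2, the library with the high striatal markers. Against WT vehicle it was -0.22 ± 0.13, and -0.05 without WT vehicle replicate 3. Whether other tissue in these libraries has a part in the values was not tested.

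Dyrk2, a kinase that primes substrates for GSK3, varied widely within the wild type, at 64.1, 44.8 and 53.6 CPM. It was at 52.2, 51.9 and 50.7 CPM in 3xTg vehicle and at 51.6, 57.9 and 52.3 CPM in 3xTg LP-10d, so both 3xTg groups lay within the WT vehicle range. It was the only member with a positive log2 fold change for LP-10d against 3xTg vehicle, 0.06 ± 0.12 (SE; interval -0.20 to 0.33).

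Gsk3a stood at 168, 165 and 122 CPM in the WT vehicle libraries, 175, 163 and 174 CPM in those of 3xTg vehicle and 160, 156 and 175 CPM with LP-10d. WT vehicle replicate 3 was the low library, and the other 8 lay between 156 and 175 CPM. The log2 fold change of 3xTg vehicle against WT vehicle was 0.17 ± 0.12 (SE; interval -0.09 to 0.43, edgeR adjusted p = 0.517). Without WT vehicle replicate 3 it was 0.03. In that comparison Gsk3a and Gsk3b were the 2 members with a positive value.

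Gsk3b, the isoform most studied as a tau kinase, was at 153, 130 and 165 CPM in WT vehicle. It was at 150, 176 and 146 CPM in 3xTg vehicle and at 153, 145 and 149 CPM in 3xTg LP-10d. All groups overlapped, and the highest library was 3xTg vehicle replicate 2, the library with the high striatal markers. Whether other tissue has a part in that value was not tested. The log2 fold change was 0.08 ± 0.10 for 3xTg vehicle against WT vehicle and -0.08 ± 0.10 for LP-10d against 3xTg vehicle (SE), and without 3xTg vehicle replicate 2 these were -0.0060 and 0.0070. The ratio of Gsk3a to Gsk3b, on the FPKM scale, was 3.74, 4.30 and 2.52 in WT vehicle, 3.96, 3.14 and 4.02 in 3xTg vehicle and 3.55, 3.65 and 4.0 in 3xTg LP-10d.

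**Figure D3:**
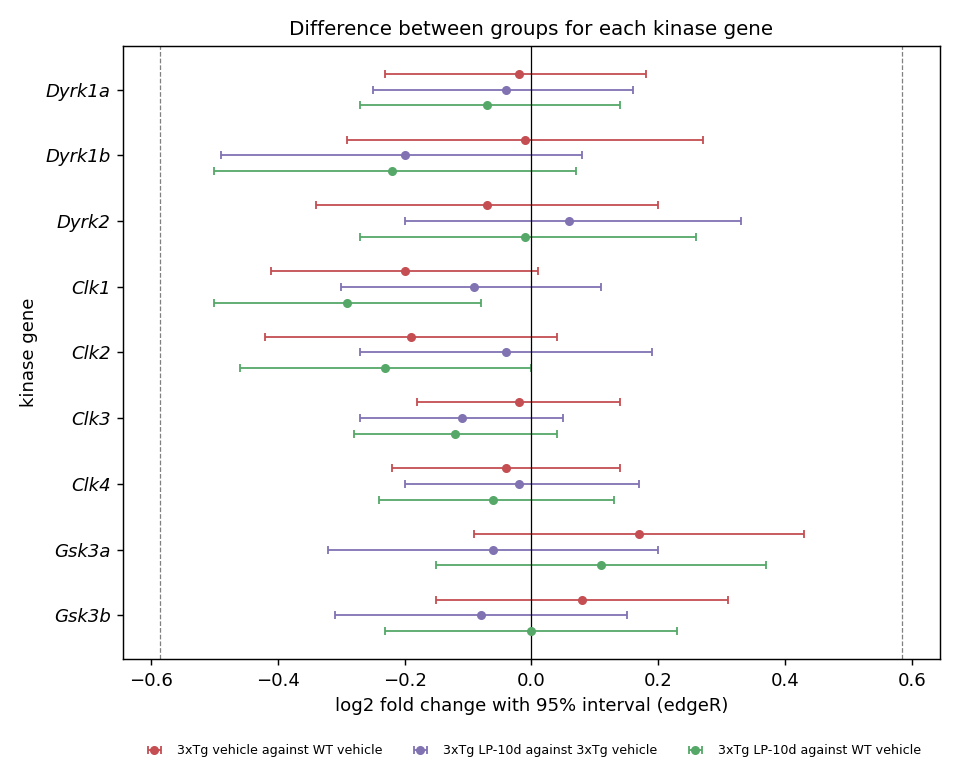
Log2 fold change (point) and 95% interval (bar) of each kinase gene in the 3 comparisons, from 1 edgeR fit of 9 libraries; dashed lines mark 1.5-fold in either direction. Every interval lies between the dashed lines, and the interval of Clk1 for LP-10d against WT vehicle, -0.50 to -0.08, lies wholly below 0.

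Counts of members can be set against all tested genes. In 3xTg vehicle against WT vehicle, 2 of 9 members had a log2 fold change above 0 and the median was -0.024, against 50.2% of all tested genes and a median of 0.001. No member had groups that did not overlap, against 17.4% of all genes (7.99% in the lower direction), and none had an unadjusted edgeR p under 0.05, against 14.1%. Clk1 did in 5 of 24 alternatives, among them the replicate block, with an unadjusted edgeR p of 0.0486 (0.363 after adjustment), and upper-quartile scaling, with 0.0396 (0.331 after adjustment). The unadjusted edgeR p of Clk1 was 0.0460 without WT vehicle replicate 1 (0.293 after adjustment), and leaving out 3xTg vehicle replicate 2 gave 0.0191 (0.401 after adjustment). Clk2 did in 1, without WT vehicle replicate 1. In LP-10d against 3xTg vehicle, 1 of 9 was above 0 with a median of -0.058, against 49.9% and a median of 0 for all genes. Dyrk1b was the 1 member whose groups did not overlap, in the lower direction, against 11.6% of all genes in either direction and 5.81% in the lower. None had an unadjusted edgeR p under 0.05, against 2.9% of all genes (1.95% lower). Dyrk1b did in 3 of 24 alternatives, with an unadjusted edgeR p of 0.0203 (0.544 after adjustment) when the replicate number was a block in a fit of the 6 libraries compared, 0.0214 (0.790 after adjustment) with those libraries and no block, and 0.0266 (0.870 after adjustment) without WT vehicle replicate 3. In LP-10d against WT vehicle, 2 of 9 were above 0 with a median of -0.065, against 49.5% and a median of -0.003. Here Clk1 and Clk3 did not overlap in CPM, both lower, against 14.4% of all genes in either direction and 6.89% in the lower. The Clk3 groups overlapped on the FPKM scale. Clk1 and Clk2 had an unadjusted edgeR p under 0.05, both lower, against 8.75% of all genes in either direction and 4.67% in the lower. Clk1 did in 23 of 24 alternatives, all but the fit without 3xTg LP-10d replicate 1, Clk2 in 8 and Dyrk1b in 1. These comparisons share libraries: the first and the third share WT vehicle, and the second shares 3xTg vehicle with the first and LP-10d with the third.

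The spread of most members between replicates was like that of other genes at similar levels. Over the 5437 tested genes with a mean of 30 to 200 CPM, the median coefficient of variation within groups was 9.00%. Clk3 and Clk4 were among the steadier genes, at 3.90% and 5.56%, below which lay 5.48% and 18% of those genes. Dyrk1b was the most variable member at 12.5%, with 72.1% of those genes below it.

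The kinases were also compared with each other over the 9 libraries, as the correlation of log2 CPM for all 36 pairs. None passed after adjustment over the 36 pairs, and the smallest adjusted p was 0.273 for Pearson's r and 0.111 for Spearman's rho (exact permutation tests, two-sided). The highest r, 0.75, was between Clk1 and Clk3 (rho = 0.88; exact permutation p = 0.024 for r and 0.00308 for rho). For that pair r was 0.63 with WT vehicle replicate 3 and 3xTg LP-10d replicate 1 left out, the 2 libraries farthest from the median of Clk1, and 0.64 after group means were subtracted. Clk1 and Clk4 had r = 0.64 and rho = 0.83 (exact permutation p = 0.0642 and 0.00827), and r = 0.67 in both of these checks. With log2(FPKM + 1) in place of log2 CPM, r was 0.57 for Clk1 with Clk3 and 0.46 for Clk1 with Clk4. Several other values rested on WT vehicle replicate 3. Without it, r went from 0.71 to 0.25 for Dyrk1a with Dyrk1b, from -0.74 to 0.16 for Clk2 with Gsk3a and from -0.66 to 0.22 for Dyrk1b with Gsk3a. Dyrk1b with Gsk3b changed little, from 0.72 to 0.73, but was 0.32 with WT vehicle replicate 3 and 3xTg vehicle replicate 2 left out.

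**Figure D4:**
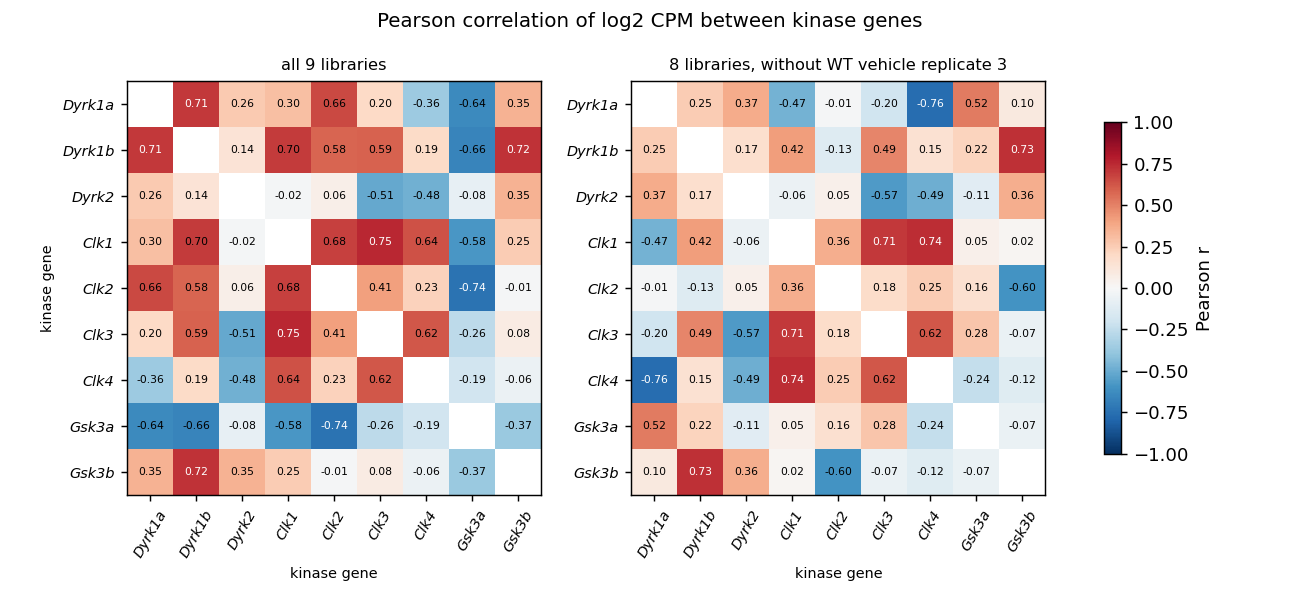
Pearson r of log2 CPM for each pair of kinase genes over all 9 libraries (left) and over 8 libraries without WT vehicle replicate 3 (right); colour runs from -1 (blue) to 1 (red). The negative values of Gsk3a with Clk2 (-0.74) and Dyrk1b (-0.66) are 0.16 and 0.22 on the right, while Clk1 with Clk3 stays at 0.71.

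For 1 gene of each family, the genes with the most alike pattern over the 9 libraries were picked by Pearson's r of log2 CPM. The choice was among 9894 tested genes with a standard gene symbol and a mean of at least 10 CPM. These are descriptions over the same libraries, which differed in markers of other tissue. Clk1 and Dyrk1a were highest in WT vehicle replicate 3, the library with the highest thalamic markers. Gsk3b was highest in 3xTg vehicle replicate 2, the library with the high striatal markers. The part of other tissue in these patterns was not tested, and no r was taken with a library left out. Closest to Clk1 were the collagen prolyl hydroxylase subunit P4ha1 (r = 0.955), Zmym1 (0.936), the clock gene Per2 (0.935) and the glucocorticoid-induced Tsc22d3 (0.932). Per2 ran from 44.4 to 96.3 CPM and Tsc22d3 from 44.7 to 63.4 CPM. Closest to Dyrk1a were the splicing factor Bud13 (0.964), the chromatin remodelling subunit Mta3 (0.961), Zswim1 (0.960) and the ganglioside synthase St3gal5 (0.958). Gsk3b was most like Scube1 (0.972), Tmem94 (0.959), the farnesyltransferase subunit Fntb (0.939) and the histamine receptor Hrh3 (0.931), with Hrh3 ranging from 33.2 to 109 CPM.

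Related kinases, partners and substrates were read from 5 gene lists, and no gene of any list passed the adjusted threshold in any of the 3 comparisons. Among the related CMGC kinases, 9 of 10 were tested and Dyrk4 was too low to test. Dyrk3, a kinase that dissolves stress granules, stood at 17.1, 16.3 and 17.4 CPM in the WT vehicle libraries, 14.1, 11 and 14.5 CPM in those of 3xTg vehicle and 12.1, 13.5 and 14.8 CPM with LP-10d. Both 3xTg groups lay below the wild type, with log2 fold changes of -0.36 ± 0.13 and -0.33 ± 0.13 (SE; edgeR adjusted p = 0.284 and 0.569). Without 3xTg vehicle replicate 2, the Dyrk3 value for 3xTg vehicle against WT vehicle was -0.24. Hipk1 had values of -0.20 in both comparisons with the wild type and also did not overlap. Without WT vehicle replicate 3 Hipk1 was at -0.15 and -0.13. Both genes are among those of smallest p in the list. Of all genes, 7.99% lay lower without overlap in 3xTg vehicle and 6.89% with LP-10d. Hipk2 was at -0.40 and -0.32, with 161 CPM in WT vehicle replicate 3 and 98.8 to 114 CPM in the other wild-type libraries. Without that library these values were -0.19 and -0.09. The smallest p values for LP-10d against 3xTg vehicle were those of Hipk4, Srpk1 and Hipk3, at -0.27, -0.15 and -0.15. Without 3xTg vehicle replicate 2 Hipk4 was at -0.18, and without 3xTg vehicle replicate 3 Srpk1 was at -0.09. The list medians were -0.068, 0.006 and -0.091 in the 3 comparisons, with 5, 4 and 8 of 9 genes below 0. Of all tested genes, 49.8%, 50.1% and 50.5% were below 0.

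Of the 16 genes of DYRK1A partners and the calcineurin-NFAT axis, in which calcineurin brings NFAT factors into the nucleus and DYRK and GSK3 kinases send them out, 10 were below 0 in 3xTg vehicle against WT vehicle, with a median of -0.103. At an unadjusted p under 0.05 in that comparison, edgeR counted 5 of these 16 genes, 3 of 9 related CMGC kinases, 3 of 13 SR factors, 3 of 23 GSK3 partners and 1 of 9 beta-catenin targets, all lower, where 7.08% of all genes were. Ppp3ca, the main catalytic subunit of calcineurin in brain, was at 1479, 1270 and 1434 CPM in the WT vehicle libraries, 1156, 1071 and 1121 CPM in those of 3xTg vehicle and 1072, 1090 and 1229 CPM with LP-10d. Nfatc2 was at 31.7 ± 3.34, 23.9 ± 2.91 and 22.8 ± 0.429 CPM, and Nfatc1 at 10.6 ± 2.85, 7.46 ± 0.770 and 7.70 ± 0.472 CPM in that order (SD, n = 3 each). In all 3 genes both 3xTg groups lay below the wild type without overlap. They are the 3 genes of the list with the smallest p in both comparisons. Of all genes, 7.99% lay lower without overlap in 3xTg vehicle and 6.89% with LP-10d. Nfatc1 had wild-type levels of 8.68, 9.17 and 13.8 CPM, and without replicate 3 its log2 fold changes against the wild type were -0.27 for 3xTg vehicle and -0.22 for LP-10d. Their log2 fold changes for 3xTg vehicle against WT vehicle were -0.32, -0.41 and -0.50 (edgeR adjusted p = 0.218, 0.199 and 0.290), and for LP-10d against WT vehicle -0.30, -0.47 and -0.46 (adjusted p = 0.535, 0.489 and 0.569). Against WT vehicle, 6 of the 16 genes were above 0 in 3xTg vehicle and 4 with LP-10d, where 50.2% and 49.5% of all genes were. Among them were Nfatc4, at 0.34 and 0.33, and Dcaf7, at 0.20 in both. Without WT vehicle replicate 3, Nfatc4 was at 0.20 and 0.19 and Dcaf7 at 0.07 and 0.08. The value of Nfatc4 for 3xTg vehicle was 0.13 without 3xTg vehicle replicate 1. For LP-10d against 3xTg vehicle the list median was 0.009, and no gene of the list had an unadjusted p under 0.05. The smallest p values there were those of the calcineurin regulators Rcan2 (-0.25) and Rcan1 (-0.10) and of the calcineurin subunit Ppp3r1 (0.12). Rcan2 was at -0.09 without 3xTg vehicle replicate 2, and Rcan1 at -0.04 without 3xTg LP-10d replicate 2.

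The 13 SR splicing factors and related CLK substrates had medians of -0.058, 0.022 and -0.040 in the 3 comparisons. Tra2b, a regulator of tau exon choice, stood at 59.2, 58.1 and 53.6 CPM in the WT vehicle libraries, 46.7, 50.8 and 46.2 CPM in those of 3xTg vehicle and 51.7, 48.9 and 52.4 CPM with LP-10d. Both 3xTg groups were below the wild type without overlap, with log2 fold changes of -0.25 ± 0.08 and -0.16 ± 0.08 (SE; edgeR adjusted p = 0.240 and 0.588). In these comparisons 7.99% and 6.89% of all genes lay lower without overlap. Srsf10 and Sfswap had values of -0.22 and -0.21 in 3xTg vehicle against WT vehicle, and Sfswap was at -0.12 without WT vehicle replicate 3. Tra2a was at -0.21 in LP-10d against WT vehicle and at -0.14 in LP-10d against 3xTg vehicle, and Sfswap was at 0.09 in the latter. There Tra2a was at -0.08 without 3xTg vehicle replicate 2, and Sfswap at 0.05 without 3xTg LP-10d replicate 2.

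Among 23 GSK3 partners, upstream kinases and substrates the medians were -0.027, -0.015 and -0.028. Sgk1, a glucocorticoid-induced kinase that can phosphorylate GSK3, was the gene with the smallest p in both comparisons with the wild type. It stood at 79.9, 105 and 108 CPM in the WT vehicle libraries, 53.3, 79.9 and 68.4 CPM in those of 3xTg vehicle and 50.8, 66.8 and 57.7 CPM with LP-10d. The LP-10d libraries lay below all wild-type libraries, and 3xTg vehicle replicate 2 reached the lowest of them. In LP-10d against WT vehicle, 6.89% of all genes lay lower without overlap. The log2 fold changes were -0.54 ± 0.17 for 3xTg vehicle and -0.74 ± 0.17 for 3xTg LP-10d against WT vehicle (SE; edgeR adjusted p = 0.234 and 0.487), and -0.20 ± 0.17 for LP-10d against 3xTg vehicle, which ranged from -0.34 to -0.06 with single libraries left out. The Wnt co-receptor Lrp5 was at -0.36 in 3xTg vehicle against WT vehicle, while Csnk1a1 and Apc2 of the beta-catenin destruction machinery were at 0.10 and -0.09 in LP-10d against 3xTg vehicle. Csnk1a1 was at 0.06 without 3xTg LP-10d replicate 3.

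GSK3 marks beta-catenin for destruction, and 9 of 10 beta-catenin target genes were tested, with Sp5 too low. Their medians were -0.043, -0.020 and -0.070, and the largest differences came from low or uneven genes. Lef1 was at 19.1 CPM in WT vehicle replicate 3 and between 2.86 and 7.95 CPM elsewhere. It is also on the thalamic marker list, whose sum was highest in that library; the part of thalamic tissue in the value was not tested. Without WT vehicle replicate 3, its difference between 3xTg vehicle and WT vehicle went from -0.82 to 0.40. Ccnd1 was at 38.7 ± 8.06, 30.2 ± 4.53 and 34.8 ± 1.75 CPM in WT vehicle, 3xTg vehicle and 3xTg LP-10d (SD, n = 3 each). Tcf7, Notum and Rnf43 were below 8 CPM in every library.

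**Figure D5:**
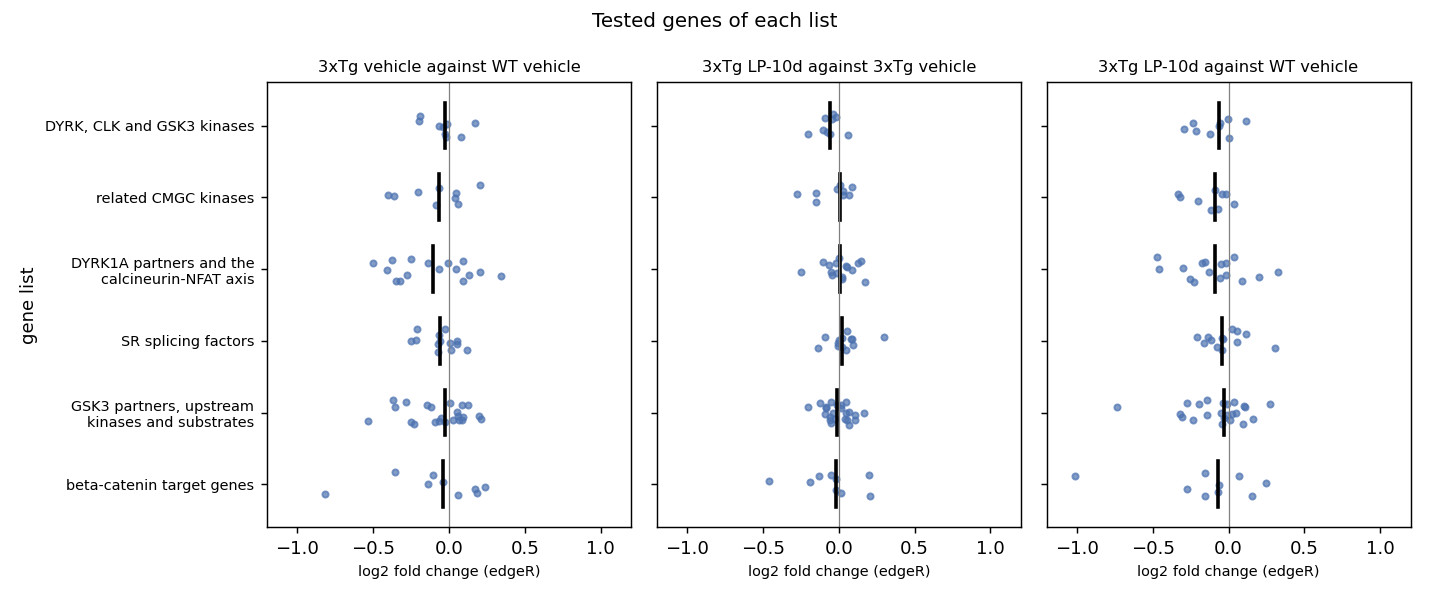
Log2 fold change (edgeR) of every tested gene of the 9 kinases and of the 5 related lists in each comparison; points are genes, black lines are medians. For LP-10d against 3xTg vehicle the medians lie between -0.058 and 0.022.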

How the data were processed

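The authors deposited raw counts for 55471 genes and FPKM values, with names and positions, for the 33175 genes with a count; the submitters' processing notes name mm10, and the sources used here do not give the aligner, counter or strand setting. Groups were compared with edgeR 4.0.16 (R 4.3.3): filterByExpr, TMM, 1 fit of all 9 libraries by group, its quasi-likelihood test, and p-values adjusted by Benjamini and Hochberg over 17396 genes (threshold 0.05). Exact permutation of 3 against 3 libraries cannot go below p = 0.1. The members, lists and tests were chosen with earlier results of these data known. All 9 members are named, and from each list up to 3 genes of smallest p per comparison; 1 of these is not reported here. Limma 3.58.1, DESeq2 1.42.0, other filters and scalings, left-out libraries and the deposited FPKM (pseudocounts 0.1 and 1) were alternatives. Gene models came from GENCODE M21 and coding identity from BLAST 2.17.0. Deviations from the group mean correlated positively between 3xTg vehicle and LP-10d samples of the same replicate number (0.173, 0.104 and 0.375). Samples of different numbers were not compared, so these values do not show that the numbers are pairs. A replicate block was also fitted, and it changed no call for a kinase.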

Additional observations from a re-analysis of the deposited data

How the results depend on the processing

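No kinase passed the adjusted threshold under any alternative. Over 648 alternative values of the 27 log2 fold changes, the smallest adjusted p was 0.288 (edgeR, limma or DESeq2) and 56 values changed sign, in 13 of the 27; the cause was not tested. Among all genes, edgeR called 1 in 3xTg vehicle against WT vehicle (2449 at an unadjusted p under 0.05). DESeq2 called 352, edgeR without a filter 3, and limma on FPKM 3 with pseudocount 0.1, 2 with pseudocount 1 and 7 with pseudocount 1 and no filter. Leaving out libraries gave 0 to 11, with 11 without WT vehicle replicate 2. In LP-10d against 3xTg vehicle edgeR called 0 (504 unadjusted), DESeq2 1 and limma on unfiltered FPKM 5, and leaving out libraries gave 0 throughout. In LP-10d against WT vehicle edgeR called 0 (1523 unadjusted), DESeq2 46 and limma on unfiltered FPKM 5, and leaving out libraries gave 0 to 2.

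With the replicate number as a block, 9 libraries fitted together, the number of genes called was 1, 0 and 0; with the block and only the 6 libraries compared, a choice added after seeing the data, it was 1, 1 and 0. The block reversed Dyrk2 in LP-10d against WT vehicle to 0.00240 (9 libraries) and 0.00403 (6 libraries), and Dyrk1b in 3xTg vehicle against WT vehicle to 0.00177 (6 libraries). Same-numbered samples had correlations of -0.173, -0.0906 and -0.118 between 3xTg vehicle and WT vehicle and of -0.178, 0.160 and -0.109 between LP-10d and WT vehicle, so there the numbers are not taken as pairs.

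In 3xTg vehicle against WT vehicle, scaling to total counts, FPKM with pseudocount 0.1 and FPKM with pseudocount 1 (with or without a filter) gave 0.0219, 0.0223 and 0.0203 for Dyrk1a, 0.0377, 0.0439 and 0.0411 for Dyrk1b and 0.0235, 0.0244 and 0.0223 for Clk3. Clk4 was 0.00197 and 0.00159 with the FPKM settings, and Dyrk1b was 0.00239 with limma-voom. In LP-10d against WT vehicle, Dyrk2 was 0.0439 with total counts, 0.0527 and 0.0469 with the FPKM settings and 0.00840 with limma-voom. Gsk3b there was -0.00247 with RLE size factors, -0.00109 with upper-quartile scaling, -0.00240 with DESeq2 and -0.00177 with only the 6 libraries compared.

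Leaving out libraries changed signs as follows, as the lowest and highest log2 fold change. In 3xTg vehicle against WT vehicle the ranges were -0.0977 to 0.106 for Dyrk1a, -0.119 to 0.142 for Dyrk1b, -0.191 to 0.0693 for Dyrk2, -0.0562 to 0.0148 for Clk3, -0.104 to 0.00707 for Clk4 and -0.00966 to 0.152 for Gsk3b. In LP-10d against 3xTg vehicle they were -0.0982 to 0.0108 for Clk2, -0.0374 to 0.0411 for Clk4 and -0.131 to 0.0120 for Gsk3b. In LP-10d against WT vehicle they were -0.138 to 0.0295 for Dyrk1a, -0.127 to 0.139 for Dyrk2, -0.0231 to 0.197 for Gsk3a and -0.0899 to 0.0782 for Gsk3b. These include a fit that leaves out replicate 3 of WT vehicle together with replicate 2 of 3xTg vehicle, added after seeing the data.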
